A study of Homo sapiens with 2 samples.

Results

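NF-kB is a family of dimeric transcription factors that drives inflammatory gene expression. For 6 genes of its pathway, the summits of ZMYND8 ChIP-seq lists were examined: RELA, NFKBIA, TNFAIP3, IL6, CXCL8 and LIF. Each gene was taken by its hg19 span widened by 10 kb at each side, and every deposited summit inside that window was counted. The 6 windows held 1 of the 385 summits listed for ZMYND8 knockout spheres and 20 of the 45924 listed for parental spheres. Gene expression was not measured, so the activity of these genes in these cells is not known here. They were grouped by their known roles, and were chosen with earlier results of these data known. In a RefSeq table, all 6 symbols lie on the chromosome that their window names.

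The data are ChIP-seq with an antibody against ZMYND8, a chromatin reader with bromodomain, PHD, PWWP and MYND domains. There were 2 libraries from mammospheres (floating sphere cultures in MammoCult medium) of MDA-MB-231, an established line from a triple-negative breast cancer. In 1 of them the spheres carried a ZMYND8 knockout, and in the other they had the wildtype genotype (parental). The method behind the knockout, and whether the line is 1 clone, is not stated in the labels. Each genotype has a single library, so there is no replicate error and no test between genotypes. The 95% intervals given reflect only counting error, and they treat summits as independent although many lie close together. The depth of sequencing is not stated in the sources used here, and unequal depth alone can make summit lists unequal in length.

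In resting cells, the inhibitor encoded by NFKBIA holds RELA-containing dimers in the cytoplasm. Inflammatory signals lead to destruction of this inhibitor, and the freed dimers enter the nucleus and bind kB sites at their target genes. Among these targets are NFKBIA itself and TNFAIP3, which encodes a ubiquitin-editing enzyme, and both shut the pathway down again. IL6, CXCL8 and LIF encode secreted proteins: IL6 a cytokine of acute inflammation, CXCL8 a chemokine that attracts neutrophils, and LIF a cytokine of the IL6 family with roles in stem cell self-renewal.

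The proximal promoters of the 4 target genes matched in the RefSeq promoter table that held a kB-type pattern are printed first, because they hold the textbook kB sites of this pathway. The windows are the 250 bases before each RefSeq start (build GRCh38.p14), 5′ to 3′ on the gene's strand. Capitals mark matches on either strand to the NF-kB consensus decamer or to the 9-letter pattern GGNNNTTCC, which were chosen from general knowledge of kB sites with these sequences in view. NFKBIA is at chr14:35404750-35404999 (minus strand), TNFAIP3 at chr6:137867009-137867258 (plus), IL6 at chr7:22726950-22727199 (plus) and CXCL8 at chr4:73740319-73740568 (plus).
NFKBIA: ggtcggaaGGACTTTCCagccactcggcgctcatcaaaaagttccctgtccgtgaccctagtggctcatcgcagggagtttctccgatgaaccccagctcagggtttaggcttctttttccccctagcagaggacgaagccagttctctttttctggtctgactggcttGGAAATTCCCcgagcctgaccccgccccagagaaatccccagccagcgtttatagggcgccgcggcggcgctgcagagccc
TNFAIP3: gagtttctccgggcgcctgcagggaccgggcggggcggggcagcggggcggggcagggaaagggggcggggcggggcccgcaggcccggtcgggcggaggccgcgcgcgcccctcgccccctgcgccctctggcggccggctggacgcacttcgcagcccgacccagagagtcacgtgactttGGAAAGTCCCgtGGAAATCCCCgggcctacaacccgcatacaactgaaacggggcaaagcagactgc
IL6: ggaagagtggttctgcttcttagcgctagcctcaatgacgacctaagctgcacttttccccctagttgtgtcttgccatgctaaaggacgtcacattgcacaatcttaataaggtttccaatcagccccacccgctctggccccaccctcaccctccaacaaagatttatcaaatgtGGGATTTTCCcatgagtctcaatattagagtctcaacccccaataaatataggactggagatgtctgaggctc
CXCL8: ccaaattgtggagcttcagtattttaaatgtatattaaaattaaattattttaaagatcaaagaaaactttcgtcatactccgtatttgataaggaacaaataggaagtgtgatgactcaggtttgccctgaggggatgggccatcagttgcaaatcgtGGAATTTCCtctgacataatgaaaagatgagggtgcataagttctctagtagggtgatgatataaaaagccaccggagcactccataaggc

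The decamer matched 2 times in the TNFAIP3 window, 1 time each in the NFKBIA and IL6 windows, and 0 times in the CXCL8 window. The 9-letter pattern overlapped each of these decamer matches. It gave 2 further matches in CXCL8, which are the same 9 bases read on both strands. In NFKBIA it gave 1 further match well upstream of the decamer, and also read the decamer site on its other strand. Of 35116 RefSeq promoters, 5.21% held the decamer and 17.1% held the 9-letter pattern in the same 250 bases. RELA has 2 listed starts, and neither of their windows held a match to either pattern. LIF was not among the 5 members matched in that table. These matches describe letters only, and the summits below are on hg19, so no summit was placed within a printed window.

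NFKBIA carried the highest scoring parental summit of the 6 genes and the only knockout summit. The gene spans positions 35870716 to 35873960 of chromosome 14, in 14q13.2, on the minus strand. The knockout list held 1 summit in its window, at 35873476, 484 bp downstream of the start site and inside the gene, with a score of 3.76. Scores here are −log10 p or q values that the authors' peak caller gave each summit. The parental list held 4 summits there (exact Poisson interval 1.09 to 10.2). The highest, at 35873568, lay 392 bp downstream of the start site with a score of 10.02, and its distance to the knockout summit was 92 bp. In the knockout spheres the gene of the antibody's target is knocked out. Whether a site listed in both genotypes reflects ZMYND8 binding was not tested.

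The other 3 parental summits of NFKBIA followed the gene towards its end. They lay 1638, 2229 and 3399 bp downstream of the start site, with scores of 3.98, 2.52 and 4.62. The last was 155 bp past the gene end, and from first to last the 4 summits covered 3007 bp. Both genotypes thus had a summit close behind the start, and the knockout list had no partner for the 3 later ones, the nearest of which was 1154 bp from the knockout summit. Upstream of NFKBIA the parental list was empty for 129.0 kb. The gap between parental summits across its start was 129.4 kb, and gaps at least this long made up 73.0% of the hg19 length.

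Scores were assigned separately to the lists and were ranked only within each. The NFKBIA knockout summit stood at rank 261 of 385, and the parental one beside it at rank 2389 of 45924, a score it shared with 481 other summits. A knockout summit lay within 200 bp of 0.636% of the whole parental list, and 75.6% of the knockout list had a parental summit that near. Among the 2880 parental summits with a score of at least 10 the share was 6.08% (exact binomial interval 5.23 to 7.01), and among the 482 with the score of the NFKBIA summit it was 1.24% (0.458 to 2.69). In the 6 windows it was 1 of 20 (5.0%, 0.127 to 24.9), an interval that contains these shares.

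RELA, the gene of the main activating NF-kB subunit, had 0 knockout summits and 3 parental summits (0.619 to 8.77). Its span is 65421067 to 65430443 of chromosome 11, in 11q13.1, on the minus strand. A parental summit at 65430187 lay 256 bp downstream of the start site with a score of 3.27. Another at 65429057 lay 1386 bp downstream with a score of 2.03, which 96.4% of the parental list equalled or exceeded. The third, at 65414881 with a score of 3.79, lay 6186 bp past the gene end, on the side where SIPA1 is the next protein-coding gene in RefSeq. RELA was therefore similar to NFKBIA in having a parental summit just downstream of its start, with a lower score. Its nearest knockout summit was 170.4 kb away. In RefSeq, RELA overlaps the divergent transcript RELA-DT, TNFAIP3 overlaps WAKMAR2, IL6 overlaps IL6-AS1, and LIF overlaps LIF-AS1 and LIF-AS2. A summit inside such an overlap could not be assigned to 1 of the overlapping genes. Whether any summit lies in an overlap was not examined.

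**Figure D1:**
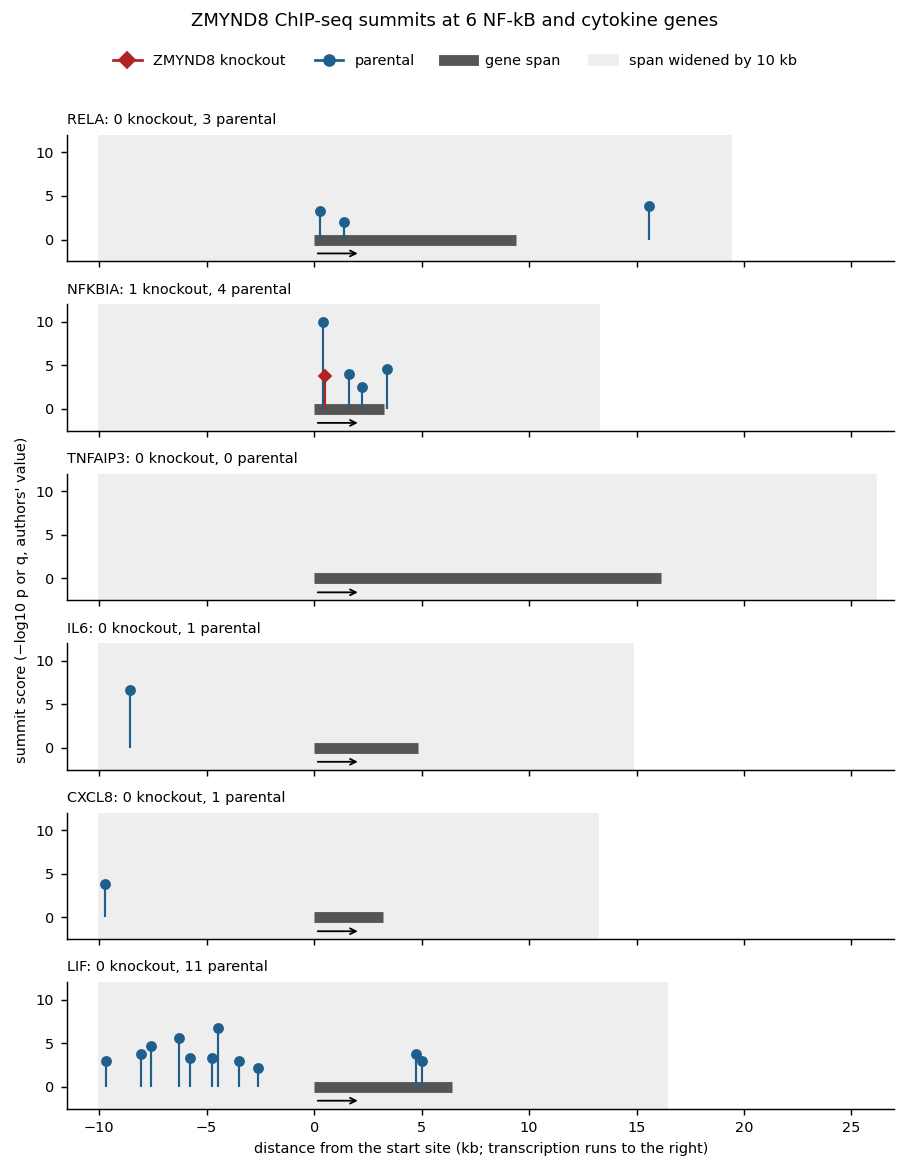
Summit scores (y axis, the authors' −log10 p or q value) by distance from the start site in kb (x axis, transcription to the right) for the 6 genes, with knockout summits as diamonds, parental summits as circles, gene spans as dark bars and the widened spans shaded. The single knockout summit, at NFKBIA, lies 92 bp from the highest parental summit, the LIF summits lie mostly upstream of the gene, and TNFAIP3 has none.

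TNFAIP3 had no summit in either list. Its window covers 36.1 kb around 138188325 to 138204451 of chromosome 6, in 6q23.3, and the exact Poisson interval of a count of 0 reaches up to 3.69 in each genotype. The nearest knockout summit lay 5644 kb from the start site. The nearest parental summit, at 138131223 with a score of 2.93, lay 57.1 kb upstream, and the next on the other side was 240.1 kb downstream. TNFAIP3 thus sat in a stretch of 297.2 kb without a parental summit, and its promoter was the printed window with the most decamer matches. Such stretches were common: gaps at least this long made up 4.38% of the 45894 gaps between neighbouring parental summits but 56.2% of the hg19 length.

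The chemokine and interleukin genes had no summit near their starts in either list. IL6 (22766766 to 22771621 of chromosome 7, in 7p15.3) had 0 knockout summits and 1 parental summit in its window. That summit, at 22758183, lay 8.58 kb upstream of the start site with a score of 6.70, a value that 18.1% of the parental list reached. CXCL8 (74606223 to 74609433 of chromosome 4, in 4q13.3) also had 0 knockout summits and 1 parental summit. It lay at 74596514, 9.71 kb upstream and close to the edge of the window, with a score of 3.79. The kB-type matches of both promoters were within 91 bases of their RefSeq starts, whereas the nearest parental summit of either gene was at least 8.58 kb from the hg19 start.

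LIF had 0 knockout summits and 11 parental summits (5.49 to 19.7), the largest count among the 6 windows. Its span is 30636436 to 30642840 of chromosome 22, in 22q12.2, on the minus strand. The interval of the knockout count of 0 reaches up to 3.69. The whole lists had a knockout to parental ratio of 0.00838, so a knockout count of 0 beside 11 parental summits does not set LIF apart. Of the 11 parental summits, 9 lay upstream of the start site, between 2.63 and 9.69 kb, and 2 lay inside the gene, 4740 and 5027 bp downstream. None lay within 1 kb of the start.

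The upstream LIF summits belonged to a run that continued past the window. With neighbouring summits at most 2 kb apart, the run held 12 parental summits from 30645470 to 30654005, a length of 8.54 kb, of which 3 were outside the window. Gaps within it were between 288 and 1612 bp. Its highest score was 6.70, at 30647292 and 4.45 kb upstream of the start, and its median score was 3.27. Scores of 5.62 at 30649135 and 4.71 at 30650451 followed inside the window, and the lowest score of the run was 2.14. Of the 28935 runs in the parental list, single summits included, 59 (0.204%) held at least 12. In RefSeq the next gene on the upstream side of LIF is OSM, another cytokine gene of the same family, whose hg19 position was not used here.

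**Figure D2:**
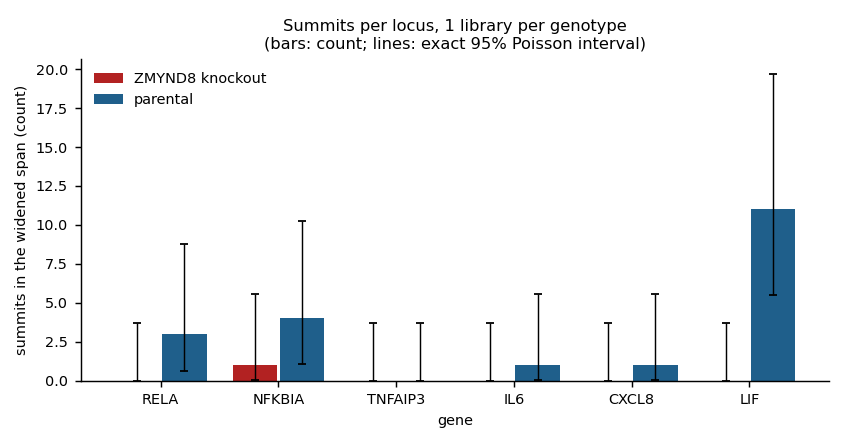
Number of summits in each widened gene span (y axis) for the ZMYND8 knockout and the parental library (bars, x axis by gene), with exact 95% Poisson intervals as lines. Knockout counts are 1 at NFKBIA and 0 at the other genes, and parental counts range from 0 at TNFAIP3 to 11 at LIF.

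Over the 6 windows together, the knockout count was 1 (0.0253 to 5.57) and the parental count 20 (12.2 to 30.9). The ratio of knockout to parental was 0.05 (0.00121 to 0.313), an interval that contains the ratio of 0.00838 for the whole lists. At these counts, the difference between the lists at the members could not be told apart from the difference between the lists as a whole. Knockout summits were found in the windows of 1 of 6 members (16.7%, 0.421 to 64.1). Of 292 protein-coding genes in a small transcript sample, taken as hg19 although it states no build, 1.03% had one. Of the 93 no longer than the longest member, 0 had one. Within 1 kb of a start it was again 1 of 6 members, against 0.685% of the sampled genes, each checked at any of its listed starts. A single summit carries both member counts.

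A parental summit was present in 5 of 6 windows (83.3%, 35.9 to 99.6), and 70.2% of the sampled genes had one when widened in the same way. Within 1 kb of the start it was 2 of 6 members, RELA and NFKBIA (33.3%, 4.33 to 77.7), against 50.3% of the sampled genes. Each member was checked only at the start site of its span, and each sampled gene at any of its listed starts. Both background shares lie inside the members' intervals, so neither count sets the members apart. The sampled genes were longer, with a median span of 32.3 kb. Of the 93 sampled genes no longer than TNFAIP3, the longest member, 68 (73.1%) had a parental summit in the window, 28 (30.1%) had 3 or more, 17 (18.3%) had 4 or more and 3 had 11 or more.

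By parental density the members ranked as LIF (4.17 summits per 10 kb), NFKBIA (1.72), RELA (1.02), CXCL8 (0.431), IL6 (0.402) and TNFAIP3 (0). The Poisson intervals of the counts of neighbours in this order overlapped. The order turned with the flank: in the gene spans alone NFKBIA led with 3 summits, LIF and RELA had 2 each, and TNFAIP3, IL6 and CXCL8 had 0. Together the windows held 122.5 parental summits per Mb (74.8 to 189.2), and 65.8 without LIF. Because summits cluster in runs, this interval is likely too narrow. The sampled genes no longer than TNFAIP3 held 77.0 per Mb in their windows, and the whole of hg19 held 15.1. The density of the short sampled genes lay inside the members' interval, and LIF supplied 11 of the 20 summits.

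Set beside fixed 25 kb windows of the genome, the counts of LIF, NFKBIA and, less far out, RELA lay in the upper tail. Of 121442 windows, 16.7% held any parental summit, 2.66% held 4 or more and 0.251% held 11 or more, and 0.282% held a knockout summit. Exactly 3, the count of RELA, were held by 2158 windows. The members' windows were between 23.2 and 36.1 kb long, so they are not of exactly this size, and they are centred on genes while the fixed windows are not. Among the short sampled genes, 30.1% had 3 or more and 18.3% had 4 or more. The counts of RELA and NFKBIA were thus not unusual for gene windows.

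**Figure D3:**
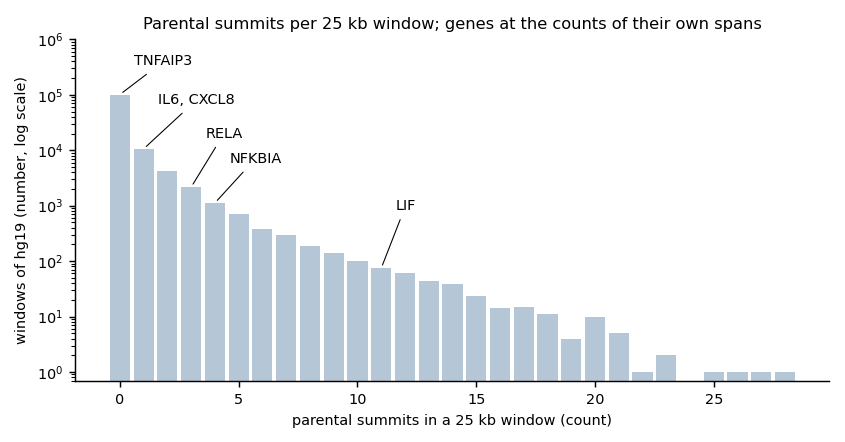
Number of 25 kb windows of hg19 (y axis, log scale) by the number of parental summits they hold (x axis), with the 6 genes marked at the counts of their own widened spans. TNFAIP3 falls with the 101204 empty windows, and LIF, at 11, falls in a tail that holds 0.251% of windows.

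Most member summits had ordinary scores. The knockout summit scored 3.76, against a median of 4.65 over the knockout list. The median of the 20 parental summits was 3.79, the same as that of the whole parental list, and their range was 2.03 to 10.02. Of the 20, 3 (15.0%, 3.21 to 37.9) belonged to the highest scoring 25%, against 26.1% of the list, a share raised by ties. These were the summit behind the NFKBIA start and the highest upstream summits of IL6 and LIF. Ties limit this ranking, since 5492 parental summits (11.96%) share the score of 3.79, 4 of them in these windows.

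The wider surroundings ranged from nearly empty to rich in parental summits. Within 100 kb of the spans, the knockout list held 1 summit in all, that of NFKBIA, and the parental list held 96. These were 77.2 parental summits per Mb, beside 15.1 over hg19. The narrower windows of the short sampled genes, widened by 10 kb, held 77.0 per Mb. The parental counts were 26 for RELA, 22 for NFKBIA, 1 for TNFAIP3, 8 for IL6, 8 for CXCL8 and 31 for LIF. At this width TNFAIP3 stood lowest and LIF highest, whereas within 200 kb RELA led with 66 parental summits, LIF had 39 and TNFAIP3 had 8.

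Farther from 4 of the genes lay runs of parental summits, again with gaps of at most 2 kb. These surroundings are several times wider than the windows, so a higher highest score is found there more readily. Upstream of IL6, 5 summits lay between 59.8 and 62.9 kb from the start, with a highest score of 13.6 at 22706986. Downstream of NFKBIA, 11 summits lay between 62.5 and 73.6 kb from the start, also with a highest score of 13.6, at 35804252. RELA had a run of 4 at 47.9 to 50.5 kb upstream, towards KAT5, with a highest score of 12.2. It also had a run of 4 at 46.7 to 49.5 kb downstream, with a highest score of 6.7. LIF had a run of 5 at 37.7 to 41.9 kb downstream with a highest score of 11.2. CXCL8 had no such run of 4 or more. The 6 summits within 50 kb of its span scored at most 5.68. No summit of the distant runs had a knockout summit within 200 bp. Only 0.636% of the whole parental list had one, so this absence does not set the runs apart. Runs of at least 4, 5 and 11 summits made up 6.12%, 3.37% and 0.270% of all parental runs. These runs are given by distance only, since the genes they lie in were not annotated on hg19 here.

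**Figure D4:**
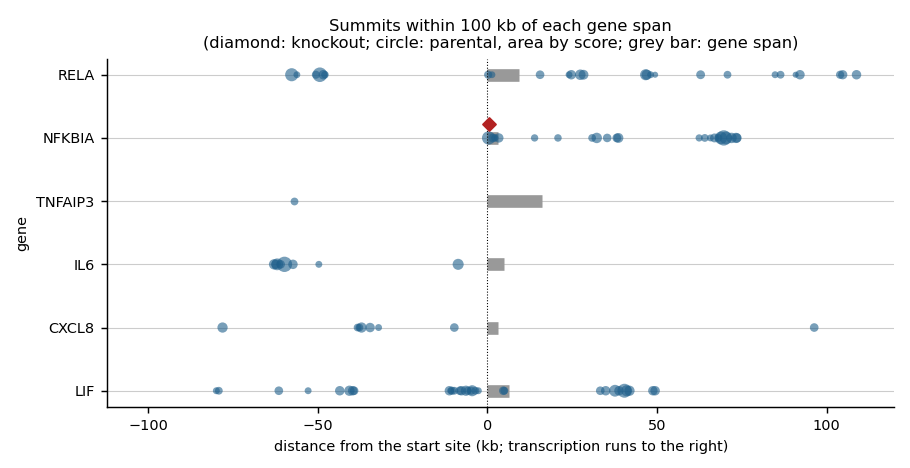
Summits within 100 kb of each gene span by distance from the start site in kb (x axis), 1 line per gene, with knockout summits as diamonds, parental summits as circles whose area grows with the score, and gene spans as grey bars. The knockout list contributes 1 summit, at NFKBIA, and parental summits fall into separate runs, while TNFAIP3 has a single parental summit 57.1 kb upstream.

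Of 42 further pathway genes listed for comparison, 2 had a position in the transcript sample taken as hg19. NFKB2, the gene of the NF-kB subunit of the non-canonical branch, had 0 knockout summits and 4 parental summits in its widened span. The nearest of these, at 104154334 of chromosome 10, lay 1 bp upstream of the sampled start site and had the highest score of the 4, 7.77. IL6ST, the signalling receptor subunit shared by IL6 and LIF, had 0 knockout summits and 5 parental summits with scores from 2.93 to 4.71. Of these, 2 lay within 1 kb of its start, the nearest at 55290703 of chromosome 5, 88 bp downstream. With the members RELA and NFKBIA, a parental summit within 1 kb of the start was thus found at 4 of 8 genes, near the 50.3% of the sampled genes. That share counts any listed start of a sampled gene. NFKB2 and IL6ST are themselves among the sampled genes, so the 2 shares are not independent.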

How the data were processed

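Summit lists of 2 ZMYND8 ChIP-seq libraries were used, grouped by the genotype in the labels. Per the labels' protocols, enzymatically prepared chromatin was sonicated before precipitation and a KAPA Hyper kit made the libraries. MACS2 2.0.10, Bowtie2 2.2.3, Picard 1.127, FastQC 0.11.2 and build hg19 are listed in the submitters' processing notes, without roles or settings. The deposited score is the authors' −log10 p or q value for each summit, which of these was not stated, and no pooling of libraries is stated. Control, threshold and depth are not stated there.

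Gene spans, the members and the gene lists were chosen with earlier results of these data known. All 6 members are named with every summit. Positions are 1-based hg19. Counts carry exact Poisson and shares exact Clopper-Pearson intervals at 95%. Counting was tested on simulated lists. Runs (gaps up to 2 kb) and the 100 kb surroundings were chosen after seeing the data. hg19 lengths and bands came from circlize 0.4.16, and a sample of 500 transcripts (292 protein-coding genes used) from pyranges 0.1.4. That sample states no build and was taken as hg19. All 485 of its transcripts on chromosomes 1 to 22 and X lie within hg19 lengths. Transcripts of another build could also pass this check, so it does not settle the build. Gene symbols, neighbours and promoter sequences came from RefSeq (GRCh38.p14), with none of its gene coordinates set against summits. Software was scipy 1.17.1, numpy 2.4.6, matplotlib 3.10.9 and pandas 2.3.3 under Python 3.11.15.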

Additional observations from a re-analysis of the deposited data

How the results depend on the processing

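No paired analysis was possible because each genotype has 1 library and the labels give no replicate numbers. A count was taken to hold within 1.5 times its main value and a share inside its 95% interval. Of 40 alternatives for the main results 23 held, and these include settings that could hardly move a small count. The 20 parental summits became 7 in the gene spans alone, 12 with 5 kb and 60 with 50 kb at each side, and 4 and 1 with scores of at least 5 and 10. Without LIF, an alternative added after seeing the data, 9 were left, or 65.8 per Mb. With those score minimums the density was 24.5 and 6.13 per Mb. The 1 knockout summit became 0 at both. Genes with a parental summit numbered 3 with the span alone, 3 with 5 kb, and 3 and 1 at the score minimums of 5 and 10, and start sites with one numbered 1 at both. Window sizes and minimums change these counts by construction. For counts of single genes 16 of 36 alternatives held and 20 did not. The LIF count was 2 in the gene span alone, below the 3 of NFKBIA. TNFAIP3 had 0 with flanks up to 50 kb and at both score minimums. The unknown depth limits what any count of 0 can show.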
